A study of Mus musculus with 18 samples.

Results

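The collagen genes, defined as every gene whose symbol is Col, a number, the letter a and a number, were examined in RNA sequencing of the frontal cortex of newborn mice. The rule found 44 genes of the 54532 counted: 11 fibrillar, 8 basement membrane and 25 other collagen genes. The other class held 6 type VI microfibril genes, 9 of fibril-associated collagens, 3 of short-chain networks, 4 of transmembrane collagens and 3 remaining ones. The study compared control pups with RXRg, RARb double mutants (dKO), mutant for 2 genes of nuclear receptors that respond to retinoids, at postnatal day 0. Orbital, medial and dorsal tissue of each genotype gave 6 groups of 3 libraries, 18 in all. Wild-type status, strain, the altered exons and the number of pups were not given in the labels used here, and all dissections came from frozen brains. The dissection notes name medial frontal, motor and orbitofrontal tissue, and which of these the dorsal samples are was not stated. Title prefix and index tell 3 sets of libraries apart, called replicates 1, 2 and 3, and the 3 regions of a genotype in a set form a row, 6 rows in all.

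Collagens are secreted or membrane proteins built from chains that wind around each other into rods. Fibrillar collagens assemble into tensile fibres, and in the brain they are made chiefly by fibroblasts of the meninges, the membranes that wrap the cortex, and by cells around larger vessels. Type IV collagen forms the sheet of the basement membrane under the endothelium of every vessel and at the pial surface. The remaining families decorate fibres, form fine networks or span the membrane of cells, neurons included, so a collagen transcript in cortical tissue is not by itself a sign of meninges or vessels.

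Libraries held 28957325 to 93093398 counted fragments. Rarb was at 3.497 to 13.9 CPM (counts per 1000000 counted fragments) in controls and 1.19 to 4.85 CPM in dKO, and Rxrg at 1.64 to 30.5 and 0.377 to 2.90 CPM, so that both ranges overlapped between genotypes. Within the same set and region, Rarb was always lower in dKO than in control tissue. Rxrg was lower too, except in orbital replicate 1, at 2.35 CPM in control and 2.90 CPM in dKO tissue. In dKO replicates 1 and 3 the female-specific RNA Xist reached 9.45 to 31.4 CPM, and no other library exceeded 0.155 CPM, so these replicates set female dKO beside male control tissue. All 16 meningeal fibroblast markers and all 17 endothelial markers had a mean of at least 1 CPM, as had 12 of 15 markers of pericytes and smooth muscle, so that the cells named in the grouping were represented in the tissue. Of 9 cartilage and bone markers 3 reached that level, Bglap was at 0 in all 18 libraries, and Acan and Matn1 averaged 0.851 and 0.480 CPM. These libraries were bulk tissue, in which fewer cells of a type and less RNA per cell cannot be told apart.

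Medial control 1 stood apart from the other 17 libraries. It was the lowest library for 25 of the 41 collagen genes tested across the 18 libraries, among them 8 of 9 fibrillar and 5 of 8 basement membrane genes. Its meningeal markers summed to 416 CPM, against 660 to 3094 CPM elsewhere, its endothelial markers to 260 CPM, against 272 to 446 CPM, and its 13 neuronal markers to 10564 CPM, the highest of all. The part of this difference in the results on medial tissue was not tested. Many of those results are given with and without that library, and values without such a second value include it. Orbital control 2 was the highest library for 14 of the 41 genes and dorsal dKO 1 for 6, of which 5 were basement membrane genes.

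Transcripts of 3 fibrillar chains and of 2 chains each of type IV and type VI collagen made up most of the collagen RNA. On the length-scaled level (TPM, counts divided by exonic length and scaled to a sum of 1000000), Col1a1 averaged 144 over the 18 libraries, Col3a1 139, Col1a2 85.2, Col4a1 80.5, Col6a1 70.9, Col4a2 67.0 and Col6a2 25.1. Col9a3 followed at 24.8, Col8a2 at 22.8 and Col26a1 at 19.96 TPM. Fibrillar genes took 41.5% to 57.5% of summed collagen TPM in a library. Of the 44 genes, 32 had a mean of at least 1 CPM, 34 were above 0 in every library and 41 passed the filter on low counts. Col10a1, a network collagen of growing cartilage, Col24a1 and Col27a1, both fibrillar, did not pass it, with 48, 69 and 147 fragments over all libraries.

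Summed over a class, fibrillar genes had 1621, 2113 and 1305 CPM in orbital controls and 1499.7, 775 and 1219 CPM in orbital dKO, in the order of replicates 1, 2 and 3. Medial tissue held 292, 874 and 1241 CPM in controls and 1196, 1065 and 749 CPM in dKO. Dorsal tissue held 883, 985 and 975 CPM in controls and 1535, 1058 and 948 CPM in dKO. The orbital controls lay above every dorsal control, and medial control 1 lay below all other libraries.

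Basement membrane genes summed to 317, 478 and 279 CPM in orbital controls and 443, 340.3 and 396 CPM in orbital dKO. In medial tissue the sums were 143, 351 and 318 CPM in controls and 374, 328 and 305 CPM in dKO. In dorsal tissue they were 381, 402 and 312 CPM in controls and 701, 426 and 482 CPM in dKO. Here the 2 highest values were those of dorsal dKO 1 and 3, followed by orbital control 2, so the regional order of this class was not that of the fibrillar class. The ratio of basement membrane to fibrillar CPM was 0.195, 0.226 and 0.214 in orbital controls, the 3 lowest values of all 18 libraries, and 0.256 to 0.509 in the other 15. The single-gene ratio of Col4a1 to Col1a1 TPM gave the same separation, 0.270, 0.317 and 0.235 against at least 0.419 elsewhere. Both genes lead their classes by mean TPM, so this ratio is not independent of the class ratio. These sums are descriptions and carry no test.

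**Figure D1:**
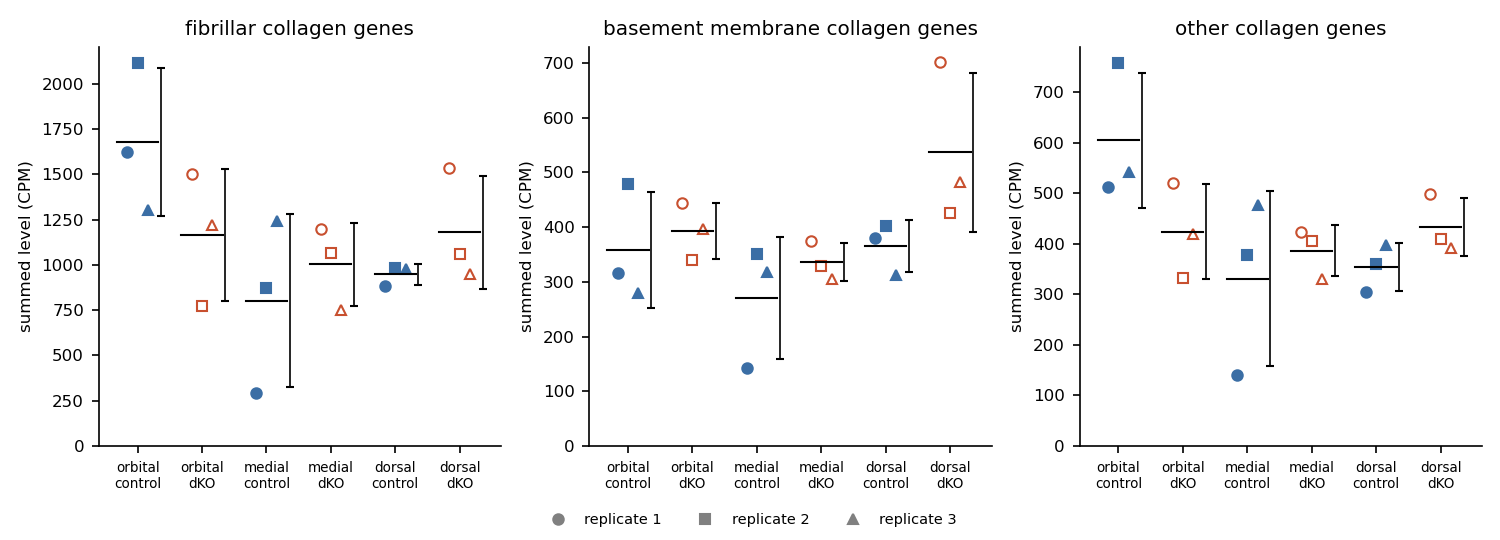
Summed levels (CPM) of the fibrillar, basement membrane and other collagen genes in each library, by region and genotype. Filled blue symbols are control and open red symbols dKO libraries, symbol shape gives the replicate, horizontal lines are group means and vertical bars 1 SD (n = 3). Fibrillar sums of orbital controls (1305 to 2113 CPM) lie above those of dorsal controls (883 to 985 CPM), and medial control 1 is the lowest point of each panel.

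Between regions, with both genotypes pooled and each row of 3 regions as a block, the collagen genes that passed the test were higher in dorsal tissue. Of 41 genes tested, 4 were lower in medial tissue (Col9a3, Col8a1, Col4a1 and Col4a2) and none higher, at an adjusted p under 0.05 in edgeR's quasi-likelihood test, against 2.34% of all 18730 genes called, 1.44% lower and 0.908% higher. Positive values, none past the test, were led by Col25a1, a transmembrane collagen of neurons, at 0.61 (SE 0.327, adjusted p = 0.334), Col9a2 at 0.43 (SE 0.252, adjusted p = 0.378) and Col2a1 at 0.41 (SE 0.561, adjusted p = 0.740). The median log2 fold change, medial minus dorsal, was -0.65 over the 8 basement membrane genes, -0.22 over 9 fibrillar and -0.15 over 24 other genes, beside 0.02 over all genes tested. Without medial control 1 these medians were -0.51, 0.02 and 0.05 (over 8, 11 and 24 genes), so the lower fibrillar level in medial tissue rested on that library.

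Col4a1 (ENSMUSG00000031502, chr8:11198423-11312826, minus strand, GRCm38) and Col4a2 (ENSMUSG00000031503, chr8:11312805-11449287, plus strand) encode the chains of the most widespread type IV collagen. The 2 genes lie head to head and their first exons share 22 bases. Their promoters are shown because they are read from opposite strands of the same stretch and the pair moved together between regions. The windows are from RefSeq (GRCm38.p6), 250 bases before to 50 after each start site, at chr8:11312777-11313076, minus strand, for Col4a1 and chr8:11312555-11312854, plus strand, for Col4a2, and 78 bases (chr8:11312777-11312854) are common to both. Capitals mark the CCAAT box, the GC box (GGGCGG) and the TATA box (TATAAA) on either strand.
Col4a1: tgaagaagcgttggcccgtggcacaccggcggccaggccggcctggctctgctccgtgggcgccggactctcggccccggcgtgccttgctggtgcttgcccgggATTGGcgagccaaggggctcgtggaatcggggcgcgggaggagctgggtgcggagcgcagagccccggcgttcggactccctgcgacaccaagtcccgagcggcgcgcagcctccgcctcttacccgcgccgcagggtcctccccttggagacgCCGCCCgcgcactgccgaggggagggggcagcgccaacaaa
Col4a2: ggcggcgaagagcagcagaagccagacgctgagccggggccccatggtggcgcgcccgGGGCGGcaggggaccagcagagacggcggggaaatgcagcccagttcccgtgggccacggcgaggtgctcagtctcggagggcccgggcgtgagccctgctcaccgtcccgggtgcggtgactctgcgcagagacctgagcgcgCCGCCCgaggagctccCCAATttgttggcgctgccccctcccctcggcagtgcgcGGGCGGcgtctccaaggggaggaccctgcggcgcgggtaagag
Each window held a CCAAT box and a GC box and no TATA box. Among all 32851 promoter windows of the table, of the same length of 300 bases, 37.4% held a CCAAT box, 35.7% a GC box and 13.6% a TATA box. A window was given for 35 of the 44 genes (38 windows, 3 genes having more than 1), and of these windows 34.2%, 60.5% and 13.2% held the motifs in the same order. Col1a1, Col2a1, Col4a3, Col5a2, Col9a3, Col12a1, Col14a1, Col22a1 and Col26a1 had none. The hexamer AGGTCA, a half-site of nuclear receptors, was in 8 of the 38 windows (21.1%, against 16.3% of all windows), of the genes Col4a4, Col6a5, Col7a1, Col9a1, Col11a1, Col20a1, Col23a1 and Col24a1. Its direct repeats with 5 or 2 bases of any kind between the copies, the spacings that retinoic acid receptors are known to bind, were in 0 of the 38 collagen windows and in 3 windows each (0.00913%) of the whole table, either strand counted. Only exact copies were searched, and they were so rare in the whole table that 0 in 38 windows cannot show whether these genes have receptor sites.

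Col4a1 was at 150.4, 194 and 129 CPM in orbital, 71.1, 171 and 146 CPM in medial and 189, 192 and 155 CPM in dorsal controls. Col4a1 in dKO was at 218, 171 and 184 CPM in orbital, 179, 166 and 147 CPM in medial and 339, 219.9 and 249 CPM in dorsal tissue. Every row had less Col4a1 in medial than in dorsal tissue, the 6 dorsal libraries ran from 155 to 339 CPM and the 6 medial ones from 71.1 to 179 CPM, so the ranges overlapped (edgeR: log2 fold change -0.66, SE 0.142, adjusted p = 0.0236). Col4a2 was at 109, 207 and 88.1 CPM in orbital, 52.2, 134 and 102 CPM in medial and 139, 149.9 and 104 CPM in dorsal controls. Col4a2 in dKO was at 172, 113 and 146 CPM in orbital, 129.6, 111 and 104 CPM in medial and 253, 151 and 151 CPM in dorsal tissue. Again all 6 rows were lower in medial tissue, with dorsal dKO 1 the highest and medial control 1 the lowest library (edgeR: log2 fold change -0.63, SE 0.155, adjusted p = 0.0444). Leaving out medial control 1 gave -0.52 (adjusted p = 0.0352) for Col4a1 and -0.50 (adjusted p = 0.0975) for Col4a2. The count of 4 collagen genes called between medial and dorsal tissue became 3 without that library, where 1.25% of all genes were called. It became 2 with control row 1 left out, 1 with dKO row 1, 1 with dKO row 2 and 2 with dKO row 3. Shares of all genes called with these rows out are not given here. Leaving out single rows raised the adjusted p to at most 0.155 for Col4a1 and 0.238 for Col4a2, and leaving the row out of the fit to 0.0767 and 0.234. The ratio of Col4a1 to Col4a2 TPM was 0.832 in orbital control 2 and 1.12 to 1.46 in the other libraries. Endothelial markers had negative values, medial minus dorsal, for 15 of 17 members (median log2 fold change -0.27), with no member past the test in edgeR and 6 at an unadjusted p under 0.05. Their part in the type IV result was not tested.

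The other basement membrane genes did not pass the test in this comparison. Col18a1, whose product carries endostatin at its end, had a value of -0.56 (SE 0.203, adjusted p = 0.164), and Col15a1, its relative, -0.97 (SE 0.386, adjusted p = 0.204). Col18a1 was at 40.9, 38.7 and 41.1 CPM in orbital, 13.6, 28 and 40.8 CPM in medial and 36.7, 31 and 33.7 CPM in dorsal controls. Col18a1 in dKO was at 32.6, 29.7 and 40.03 CPM in orbital, 32.9, 31.4 and 29.8 CPM in medial and 64.4, 33.5 and 50.2 CPM in dorsal tissue. Dorsal dKO 1 was the highest and medial control 1 the lowest library for Col18a1 as well. Col4a5 was at 8.92, 24.3 and 13.5 CPM in orbital, 1.51, 12.1 and 18.3 CPM in medial and 8.69, 13.4 and 9.76 CPM in dorsal controls. Col4a5 in dKO was at 13, 16.2 and 17.6 CPM in orbital, 18.3, 13.1 and 17.4 CPM in medial and 22, 10.6 and 21.2 CPM in dorsal tissue. Medial control 1 held the lowest level of Col4a5 by a wide margin, and the group ranges otherwise overlapped. Col4a5 and Col4a6 are neighbours on the X chromosome, 1308 bases apart, and replicates 1 and 3 set female beside male tissue. In replicate 2, where both genotypes were male, Col4a5 was lower in dKO in orbital and dorsal tissue and higher in medial tissue. Col4a6, of the network found under smooth muscle and some epithelia, was at -0.81 (SE 0.244, adjusted p = 0.0974) between medial and dorsal tissue, and the ratio of Col4a5 to Col4a6 TPM was 2.24 to 2.90 in the 6 orbital, 1.11 to 3.04 in the 6 dorsal and 0.542 to 4.40 in the 6 medial libraries, so that the regions overlapped.

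Col9a3 (ENSMUSG00000027570, chr2:180597790-180622189, plus strand), a chain of type IX collagen, which sits on the surface of cartilage fibrils, was the collagen gene with the lowest p in each of the 4 region tests against dorsal tissue. Col9a3 was at 24.7, 21.6 and 18.9 CPM in orbital, 26.7, 21.8 and 17.2 CPM in medial and 37, 42.5 and 25.8 CPM in dorsal controls. Col9a3 in dKO was at 27.9, 27.9 and 25.9 CPM in orbital, 28.3, 26.7 and 31.6 CPM in medial and 39.4, 39.7 and 36.9 CPM in dorsal tissue. Each of the 6 rows had its highest value in dorsal tissue. The change was -0.60 (SE 0.0986, adjusted p = 0.00427) between medial and dorsal and -0.67 (SE 0.0987, adjusted p = 0.00161) between orbital and dorsal tissue in edgeR, and Col9a3 was the only collagen gene past the threshold in the second comparison, where 3.91% of all genes were called, 1.48% higher and 2.42% lower. The call held under all 13 alternatives in both comparisons, with adjusted p of at most 0.0407 and 0.0196. Medial control 1 was not an extreme library for this gene. Of its partner chains Col9a2 was at 0.77 (SE 0.252, adjusted p = 0.0894) and Col9a1 at -0.17 (SE 0.224, adjusted p = 0.693) between orbital and dorsal tissue, and the ratio of Col9a3 to Col9a1 TPM was 4.71 to 19.8. Exons of Col9a3 share 234 bases with Tcfl5 on the opposite strand, 6.07% of its exonic length, and counting ignored strand, so reads of the pair cannot be told apart there. Tcfl5 averaged 2.07 CPM against 28.9 CPM for Col9a3. Among the others, Col26a1 was at 0.46 (SE 0.173, adjusted p = 0.128), Col1a1 at 0.60 (SE 0.273, adjusted p = 0.20), Col19a1 at -0.64 (SE 0.191, adjusted p = 0.0689) and Col8a1 at -0.84 (SE 0.266, adjusted p = 0.0818) in that comparison.

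The short-chain genes Col8a1 and Col8a2, whose products form hexagonal networks under endothelia and in the meninges, were lower in medial than dorsal tissue. Only Col8a1 passed the test there, and whether the 2 genes differed from each other was not tested. Their RefSeq promoter windows are shown because they encode partner chains, at chr16:57754688-57754987, minus strand, and chr4:126286544-126286843, plus strand. Capitals mark the same 3 motifs.
Col8a1: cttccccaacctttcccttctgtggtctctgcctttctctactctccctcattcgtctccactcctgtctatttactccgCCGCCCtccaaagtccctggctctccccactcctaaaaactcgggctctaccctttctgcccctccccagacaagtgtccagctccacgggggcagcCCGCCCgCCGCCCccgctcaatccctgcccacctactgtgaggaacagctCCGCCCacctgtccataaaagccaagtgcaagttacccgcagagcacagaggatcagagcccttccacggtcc
Col8a2: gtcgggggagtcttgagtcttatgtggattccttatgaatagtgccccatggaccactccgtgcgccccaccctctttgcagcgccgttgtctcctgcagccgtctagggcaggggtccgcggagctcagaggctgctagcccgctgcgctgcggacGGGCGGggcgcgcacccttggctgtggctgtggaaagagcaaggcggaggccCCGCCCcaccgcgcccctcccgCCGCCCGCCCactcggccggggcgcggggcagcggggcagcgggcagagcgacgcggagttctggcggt
Both windows held 4 GC boxes, 2 of which overlap in Col8a2, and neither held a CCAAT or TATA box. Col8a1 was at 5.12, 9.61 and 2.43 CPM in orbital, 2.07, 4.74 and 2.64 CPM in medial and 4.94, 8.81 and 3.87 CPM in dorsal controls. Col8a1 in dKO was at 3.03, 2.63 and 0.878 CPM in orbital, 2.41, 1.52 and 1.45 CPM in medial and 5.63, 5.87 and 4.68 CPM in dorsal tissue. Medial was below dorsal tissue in all 6 rows (edgeR: log2 fold change -1.33, SE 0.268, adjusted p = 0.0176), and the level was low, with 28 to 470 fragments per library. Col8a2 was at 58, 74 and 60.9 CPM in orbital, 3.6, 25.2 and 30.3 CPM in medial and 21, 26.8 and 36.9 CPM in dorsal controls. Col8a2 in dKO was at 41.2, 17.5 and 21.4 CPM in orbital, 29.5, 17.7 and 13.4 CPM in medial and 32.9, 29.6 and 24.3 CPM in dorsal tissue. In medial against dorsal tissue Col8a2 was at -0.70 (SE 0.351, adjusted p = 0.303), lower in all 6 rows as well. In the absence of medial control 1, Col8a1 was at -1.25 (adjusted p = 0.0494). Leaving out dKO replicate 1 or 2 gave an adjusted p of 0.0868 and 0.0822, and leaving out the row term 0.103.

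**Figure D2:**
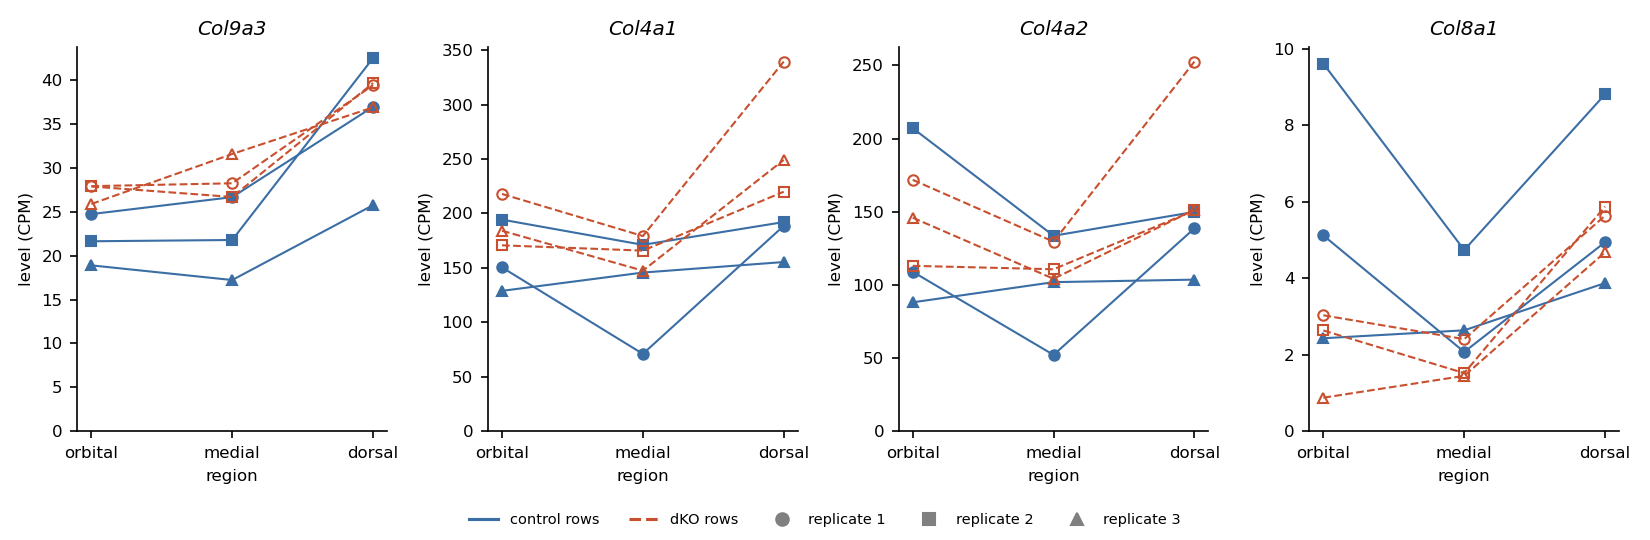
Levels (CPM) of Col9a3, Col4a1, Col4a2 and Col8a1 across the 3 regions. Each line joins the 3 libraries of a row, with solid blue lines for control and dashed red lines for dKO rows and symbols for the replicate. In all 6 rows each gene is lower in medial than in dorsal tissue, and for Col9a3 orbital tissue is lower than dorsal in all 6 rows too.

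Between medial and orbital tissue of both genotypes no collagen gene passed the test (edgeR; 0.0107% of all genes did). At an unadjusted p under 0.05 there were 12 of 41, against 11.3% of all genes, and DESeq2 and limma-voom also called 0. All 8 basement membrane and 8 of 9 fibrillar genes had negative values, medial minus orbital, with medians of -0.31 and -0.53 beside 0.02 for all genes. With medial control 1 left out the medians were -0.14 and -0.30. The lowest p values belonged to Col8a2 (log2 fold change -1.21, SE 0.363, adjusted p = 0.277), Col13a1 (log2 fold change -0.87, SE 0.293, adjusted p = 0.311), a transmembrane collagen of cell contacts, and Col6a2 (log2 fold change -0.81, SE 0.276, adjusted p = 0.314). In the positive direction Col19a1 was at 0.29 (SE 0.192, adjusted p = 0.614), Col9a1 at 0.22 (SE 0.224, adjusted p = 0.768) and Col25a1 at 0.31 (SE 0.325, adjusted p = 0.785).

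In control pups alone, 6 collagen genes differed between orbital and dorsal tissue and 4 between medial and orbital tissue. Counted in either direction, these were about the same shares as among all genes tested, so neither count sets collagen genes apart. Against dorsal controls, 3 genes were higher (Col26a1, Col6a2 and Col9a2) and 3 lower (Col9a3, Col19a1 and Col7a1) of 41 tested in edgeR, while 15.8% of all genes were called, 6.39% higher and 9.44% lower. Against medial controls, 4 genes were higher in orbital tissue (Col6a2, Col8a2, Col1a1 and Col6a1) and none lower, where 9.02% of all genes were called, 4.54% lower and 4.48% higher in medial tissue. On the other side Col25a1 was at 1.005 (SE 0.384, adjusted p = 0.121), Col19a1 at 0.64 (SE 0.250, adjusted p = 0.132) and Col7a1 at 0.57 (SE 0.669, adjusted p = 0.675). The median log2 fold change, orbital minus dorsal, was 0.65 over fibrillar, 0.02 over basement membrane and 0.64 over other genes, beside 0.03 for all genes. Medial minus orbital, it was -0.86, -0.48 and -0.67, beside 0.01, and without medial control 1 it was -0.27, -0.06 and -0.14. These 2 comparisons share the orbital controls.

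The type I chain gene Col1a1 (ENSMUSG00000001506, chr11:94936224-94953042, plus strand) makes the main fibre of meninges, skin and bone. Col1a1 was at 489.7, 539.6 and 483 CPM in orbital, 66.3, 237 and 306 CPM in medial and 209, 245 and 265 CPM in dorsal controls. Col1a1 in dKO was at 429.8, 158 and 285 CPM in orbital, 339.7, 243 and 163 CPM in medial and 342, 221 and 191 CPM in dorsal tissue. The 3 orbital controls were the 3 highest of all 18 libraries, and medial and dorsal controls overlapped each other. In controls the change was -1.42 (SE 0.338, adjusted p = 0.0225) for medial minus orbital and 0.99 (SE 0.326, adjusted p = 0.0537) for orbital minus dorsal tissue in edgeR. With medial control 1 out the former was -0.89 (adjusted p = 0.0283), and Col1a1 then passed in the latter. Col1a2 and Col3a1, which supply the partner chain of type I and the fibres of type III, were less separated. Col1a2 was at 459, 607 and 339 CPM in orbital, 83.1, 241 and 353 CPM in medial and 263, 282 and 284 CPM in dorsal controls. Col1a2 in dKO was at 417, 230.5 and 339 CPM in orbital, 339.6, 326 and 214 CPM in medial and 440.3, 338 and 261 CPM in dorsal tissue. Col3a1 was at 558, 776 and 395 CPM in orbital, 117, 312 and 464 CPM in medial and 336, 370.2 and 347 CPM in dorsal controls. Col3a1 in dKO was at 513, 296 and 488 CPM in orbital, 390.3, 391 and 280.3 CPM in medial and 619, 402 and 409 CPM in dorsal tissue. For both genes orbital control 2 was the highest library and orbital control 3 fell among the medial and dorsal values. Their values for medial minus orbital controls were -1.11 (SE 0.344, adjusted p = 0.0606) and -0.98 (SE 0.341, adjusted p = 0.0900). The ratio of Col1a1 to Col1a2 TPM was 1.68 to 2.70 in orbital controls and 1.24 to 1.95 in the other libraries. Col5a1, a minor chain that sets the width of type I fibres, was not past the test. Col5a1 was at 38.4, 86.7 and 28.1 CPM in orbital, 7.83, 31.4 and 47 CPM in medial and 28.6, 26.7 and 29.1 CPM in dorsal controls. Col5a1 in dKO was at 58.3, 31.4 and 45.5 CPM in orbital, 52.7, 41.7 and 41.6 CPM in medial and 55.6, 38.7 and 33.4 CPM in dorsal tissue. Its value for medial minus orbital controls was -0.86 (SE 0.433, adjusted p = 0.246), and orbital controls spanned 28.1 to 86.7 CPM.

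Type VI collagen forms beaded microfilaments around cells, and Col6a1 (ENSMUSG00000001119, chr10:76708792-76726168, minus strand) and Col6a2 (ENSMUSG00000020241, chr10:76595762-76623630, minus strand) encode its short chains. The genes lie on the same strand and both were higher in orbital controls, so their RefSeq windows are shown, at chr10:76725995-76726294, minus strand, and chr10:76623581-76623880, minus strand. Col6a2 has 2 windows in the table, of which the upstream one is printed.
Col6a1: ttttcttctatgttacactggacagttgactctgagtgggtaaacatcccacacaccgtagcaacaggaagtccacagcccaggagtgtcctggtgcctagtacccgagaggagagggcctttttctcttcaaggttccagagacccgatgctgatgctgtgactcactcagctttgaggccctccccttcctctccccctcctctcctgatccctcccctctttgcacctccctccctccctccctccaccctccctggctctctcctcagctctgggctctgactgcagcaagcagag
Col6a2: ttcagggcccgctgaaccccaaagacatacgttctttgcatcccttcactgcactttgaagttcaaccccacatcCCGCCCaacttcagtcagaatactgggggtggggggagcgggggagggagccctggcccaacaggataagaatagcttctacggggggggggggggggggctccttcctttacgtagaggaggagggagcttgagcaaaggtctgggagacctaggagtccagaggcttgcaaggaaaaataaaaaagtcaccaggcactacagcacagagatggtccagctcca
The printed Col6a2 window held 1 GC box, the other Col6a2 window held 3, and the Col6a1 window held none of the 3 motifs. Col6a1 was at 122.97, 189 and 132 CPM in orbital, 16.7, 69.4 and 107 CPM in medial and 60.1, 67.1 and 85 CPM in dorsal controls. Col6a1 in dKO was at 114, 67.2 and 116 CPM in orbital, 89, 95.5 and 75.8 CPM in medial and 112, 93.4 and 96.7 CPM in dorsal tissue. Col6a2 was at 89.6, 126 and 78.9 CPM in orbital, 14.8, 41.6 and 58.1 CPM in medial and 41.5, 48.2 and 47.5 CPM in dorsal controls. Col6a2 in dKO was at 92.4, 43.6 and 68.4 CPM in orbital, 68.7, 60.01 and 52 CPM in medial and 89.1, 69.6 and 58.8 CPM in dorsal tissue. For both genes every orbital control was above every medial and dorsal control, while in dKO the regions overlapped. Medial minus orbital, in controls, Col6a1 was at -1.37 (SE 0.361, adjusted p = 0.0334) and Col6a2 at -1.42 (SE 0.305, adjusted p = 0.0161), and without medial control 1 at -0.80 (adjusted p = 0.0450) and -0.95 (adjusted p = 0.0225). Orbital minus dorsal, Col6a2 was at 0.99 (SE 0.296, adjusted p = 0.0369) and Col6a1 at 0.97 (SE 0.348, adjusted p = 0.0752). The long chain gene Col6a3 was at -0.66 (SE 0.527, adjusted p = 0.504) for medial minus orbital controls. Its level relative to Col6a1 varied from 0.0332 to 0.184 on the TPM scale, and Col6a4, Col6a5 and Col6a6 all averaged under 1 CPM.

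Col8a2 was higher in orbital than in medial controls without overlap of the groups (edgeR: log2 fold change -1.96, SE 0.425, adjusted p = 0.0166), and at -1.28 (adjusted p = 0.00948) without medial control 1. Col26a1 (ENSMUSG00000004415, chr5:136741759-136883209, minus strand), a secreted collagen with an EMI domain, was higher in orbital than dorsal controls in 3 of 3 rows. Col26a1 was at 60.2, 72.2 and 113 CPM in orbital, 29.3, 40.1 and 84.2 CPM in medial and 32.2, 34.1 and 64.4 CPM in dorsal controls. Col26a1 in dKO was at 49.3, 42.1 and 41.7 CPM in orbital, 37.2, 57.8 and 26.7 CPM in medial and 40.7, 35.3 and 44.2 CPM in dorsal tissue. Control replicate 3 was the highest in each region, and the orbital and dorsal groups overlapped (edgeR: log2 fold change 0.82, SE 0.209, adjusted p = 0.0183). Col9a2 (ENSMUSG00000028626, chr4:121039385-121055322, plus strand) had orbital above dorsal values in all 6 rows. Col9a2 was at 13.3, 12.4 and 10.5 CPM in orbital, 3.53, 6.55 and 16.3 CPM in medial and 3.79, 6.32 and 7.15 CPM in dorsal controls. Col9a2 in dKO was at 8.77, 5.37 and 8.5 CPM in orbital, 6.31, 7.6 and 8.03 CPM in medial and 6.07, 4.11 and 5.72 CPM in dorsal tissue. Orbital and dorsal controls did not overlap, and medial control 3 was the highest of all libraries (edgeR, orbital minus dorsal controls: log2 fold change 1.08, SE 0.346, adjusted p = 0.0481).

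**Figure D3:**
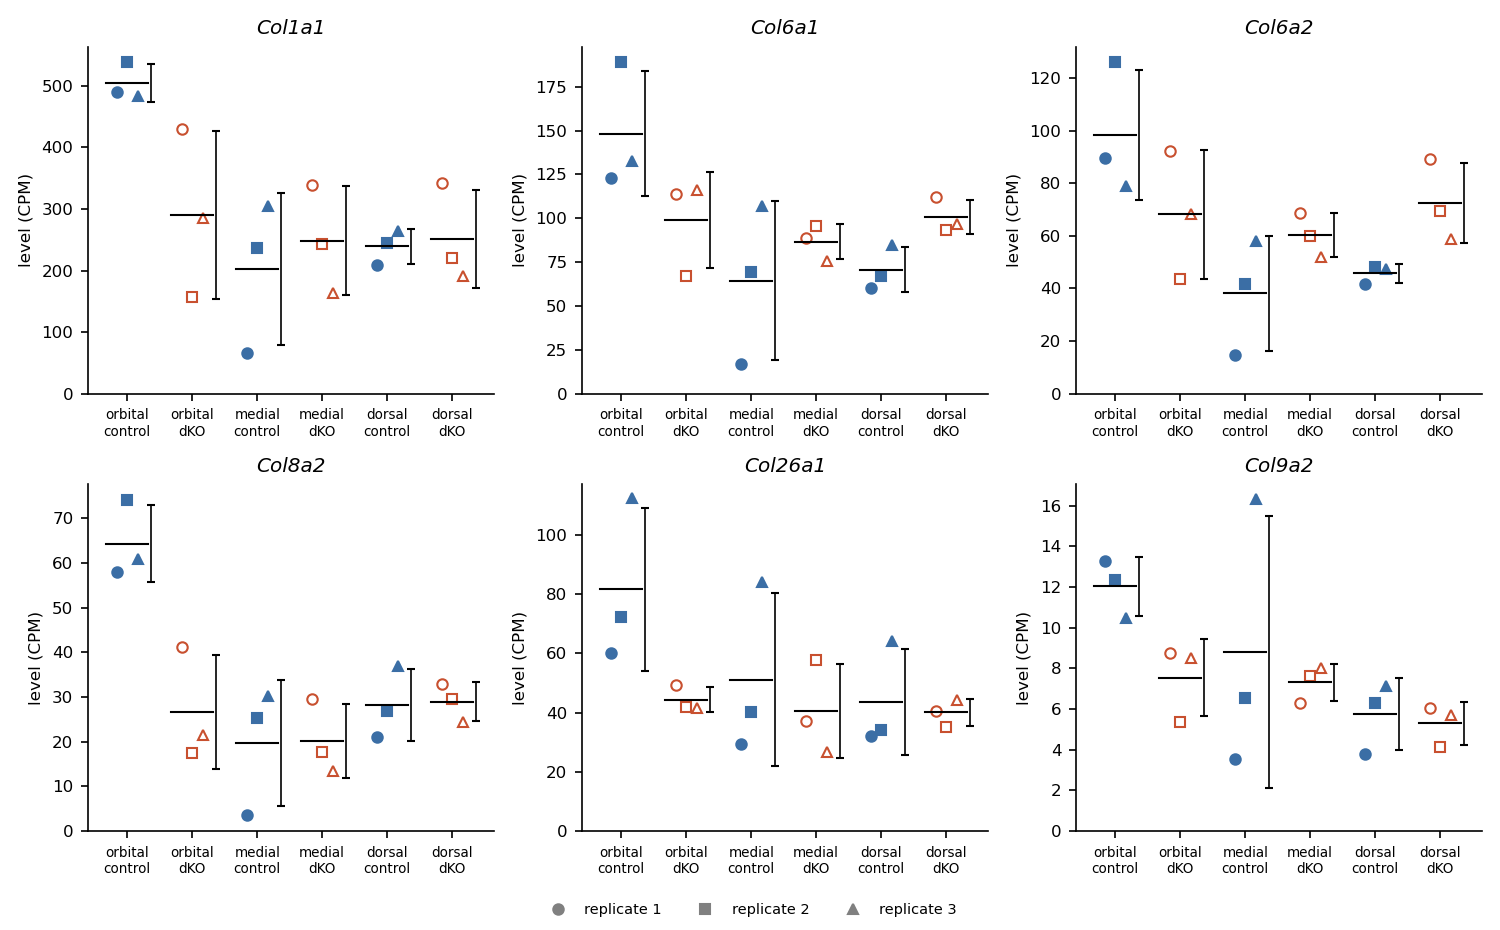
Levels (CPM) of Col1a1, Col6a1, Col6a2, Col8a2, Col26a1 and Col9a2 in each library, by region and genotype. Symbols, lines and bars are as in the plot of class sums (n = 3 per group). For Col1a1, Col6a1, Col6a2 and Col8a2 all 3 orbital controls lie above all medial and dorsal controls.

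Lower in orbital than in dorsal controls, besides Col9a3 (log2 fold change -0.78, SE 0.138, adjusted p = 0.00385), were Col19a1 (ENSMUSG00000026141, chr1:24261890-24587472, minus strand), a fibril-associated collagen that neurons are known to make, and Col7a1 (ENSMUSG00000025650, chr9:108953586-108984875, plus strand), the anchoring fibril collagen of epithelia. Col19a1 was at 10.5, 10.2 and 7.51 CPM in orbital, 9.07, 18.7 and 14.3 CPM in medial and 18.8, 14.7 and 15.3 CPM in dorsal controls. Col19a1 in dKO was at 14.1, 14.6 and 10.3 CPM in orbital, 12.2, 10.8 and 14.9 CPM in medial and 15.9, 18.8 and 14.2 CPM in dorsal tissue. Orbital and dorsal controls did not overlap, and orbital was below dorsal tissue in all 6 rows (edgeR, controls: log2 fold change -0.92, SE 0.248, adjusted p = 0.0244). Col7a1 was at 0.403, 0.454 and 0.942 CPM in orbital, 0.183, 1.32 and 1.49 CPM in medial and 2.65, 3.38 and 2.27 CPM in dorsal controls. Col7a1 in dKO was at 0.815, 1.35 and 1.66 CPM in orbital, 0.975, 1.28 and 1.42 CPM in medial and 3.34, 0.766 and 0.848 CPM in dorsal tissue. Dorsal controls were the highest group without overlap of the orbital controls (edgeR: log2 fold change -2.44, SE 0.665, adjusted p = 0.0249), at 14 to 37 fragments in the orbital and 72 to 187 in the dorsal controls. Between medial and dorsal controls, where 0.491% of all genes were called, 0.283% lower and 0.208% higher, Col9a3 was the only collagen gene past the test (log2 fold change -0.71, SE 0.137, adjusted p = 0.0396 in edgeR). That call was lost without medial control 1 (-0.79, adjusted p = 0.0687) and with any of the 6 rows left out. Not past the test in that comparison were Col8a1 at -0.93 (SE 0.308, adjusted p = 0.310) and Col7a1 at -1.86 (SE 0.664, adjusted p = 0.356), and on the positive side Col25a1 at 0.99 (SE 0.396, adjusted p = 0.439), Col9a2 at 0.43 (SE 0.346, adjusted p = 0.752) and Col2a1 at 0.87 (SE 0.878, adjusted p = 0.80).

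The control comparisons moved with single libraries, rows and the block. Without medial control 1, edgeR called 14 genes between orbital and dorsal controls (11 higher, 3 lower, against 19.4% of all genes) and 5 between medial and orbital controls (10.5% of all genes), the fifth being Col19a1. The count of 6 genes between orbital and dorsal controls became 1 with control row 2 left out, 3 with control row 3 and 3 with dKO row 1. Between medial and orbital controls the count of 4 became 1, 11 and 2 with the same rows left out. The shares of all genes called with these rows out are not given here, so these counts do not set collagen genes apart. With the row term left out of the fit, 0 genes were called in each of the 3 control comparisons.

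Markers of several cell types also differed between the control groups. In orbital controls the 16 meningeal fibroblast markers summed to 1889, 2940 and 3094 CPM, against 660, 925 and 1163 CPM in dorsal and 416, 1125 and 2683 CPM in medial controls, and 12 of 16 were higher in orbital than dorsal controls in edgeR. Library by library the order differed, as orbital control 3 had the highest meningeal sum but the lowest fibrillar sum of the orbital controls, 1305 CPM. The 17 endothelial markers summed to 370 to 393 CPM in orbital and 272 to 382 CPM in dorsal controls, with 1 higher. The choroid plexus markers summed to 48.2, 39.0 and 26.9 CPM in orbital controls and 6.70 to 19.5 CPM in the other 15 libraries. The 9 cartilage and bone markers summed to 112 to 147 CPM in orbital and 44.9 to 74.3 CPM in dorsal controls (2 higher), the 15 markers of pericytes and smooth muscle to 282 to 318 against 184 to 216 CPM (2 higher, 3 lower) and the 7 red blood cell markers to 1687 to 2141 against 578 to 1177 CPM (5 higher). Skeletal muscle markers summed to 8.07 to 15.6 against 5.91 to 10.2 CPM (1 higher). Of 12 microglial markers 9 were higher, of 8 radial glia markers 2 higher and of 13 neuronal markers 7 lower in orbital than dorsal controls. Among all genes 6.39% were called higher and 9.44% lower in this comparison, and 1 of 17 endothelial markers was near that share. The part of these cells in the collagen values was not tested.

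Genes that process or bind collagen were counted in the same comparisons, beside 15.8% of all genes called between orbital and dorsal controls, 6.39% higher and 9.44% lower. Of 24 genes of chain modification and folding, 11 were higher and 1 lower in orbital than dorsal controls in edgeR, led by Crtap (log2 fold change 1.14, SE 0.208, adjusted p = 0.00450) and P3h4 (log2 fold change 0.69, SE 0.129, adjusted p = 0.00487), partners of the prolyl 3-hydroxylases. Sparc, a collagen-binding protein, was at 0.83 (SE 0.156, adjusted p = 0.00489) and the prolyl isomerase gene Fkbp10 at 0.94 (SE 0.214, adjusted p = 0.0112). Colgalt2, a galactosyltransferase, named after its value was seen, was the lower one (log2 fold change -0.55, SE 0.177, adjusted p = 0.0496). Of 15 fibril-binding proteins 5 were higher, among them fibromodulin (Fmod, log2 fold change 1.54, SE 0.314, adjusted p = 0.00711), osteoglycin (Ogn, log2 fold change 1.39, SE 0.341, adjusted p = 0.0155), decorin (Dcn, log2 fold change 1.14, SE 0.291, adjusted p = 0.0186) and osteomodulin (Omd, log2 fold change 1.36, SE 0.378, adjusted p = 0.0268). Of 14 genes of propeptide removal and cross-linking, Pcolce (log2 fold change 1.15, SE 0.242, adjusted p = 0.00803) and Loxl3 (log2 fold change 1.11, SE 0.272, adjusted p = 0.0156) were higher and the procollagen protease gene Adamts3 lower (log2 fold change -1.51, SE 0.293, adjusted p = 0.00583). Of 12 degradation genes tested 4 were higher, namely Ctsk (log2 fold change 1.27, SE 0.257, adjusted p = 0.00708), Mmp2 (log2 fold change 0.72, SE 0.170, adjusted p = 0.0132), Mmp8 (log2 fold change 3.70, SE 0.982, adjusted p = 0.0222) and Timp1 (log2 fold change 1.43, SE 0.381, adjusted p = 0.0226). Of 17 laminins and other basement membrane genes Smoc2 was higher (log2 fold change 0.80, SE 0.180, adjusted p = 0.0110) and agrin (Agrn) lower (log2 fold change -0.95, SE 0.246, adjusted p = 0.0201), and of 10 collagen receptors tested none passed in edgeR, with 2 at an unadjusted p under 0.05. The receptor genes of highest level, Itgb1 and Adgrg1, were at 0.37 (SE 0.133, adjusted p = 0.0785) and -0.06 (SE 0.183, adjusted p = 0.866). List medians were 0.61 for modification and folding, 0.84 for fibril-binding proteins and -0.07 for laminins and their partners, beside 0.03 for all genes.

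Against orbital controls, medial controls had 1 higher and 11 lower genes of modification and folding, 3 lower fibril-binding, 4 lower cross-linking, 5 lower degradation genes and 1 lower basement membrane gene, beside 4.48% of all genes higher and 4.54% lower. In the first list Sparc was at -1.10 (SE 0.157, adjusted p = 0.00485), Fkbp10 at -1.32 (SE 0.218, adjusted p = 0.00793), Serpinh1, the collagen chaperone HSP47, at -1.29 (SE 0.229, adjusted p = 0.00943) and the lysyl hydroxylase gene Plod1 at -1.13 (SE 0.224, adjusted p = 0.0123). Dcn was at -1.26 (SE 0.297, adjusted p = 0.0220), Pcolce at -1.42 (SE 0.246, adjusted p = 0.00849), Lox, the founding cross-linking oxidase, at -1.32 (SE 0.361, adjusted p = 0.0379), Mmp2 at -0.995 (SE 0.171, adjusted p = 0.00847) and Smoc2 at -0.65 (SE 0.179, adjusted p = 0.0382). Without medial control 1 the counts in that order were 2 higher and 7 lower, 0, 1, 3 and 0 lower, with 1 basement membrane gene higher, and Dcn (-0.87, adjusted p = 0.0525), Smoc2 (-0.69, adjusted p = 0.0528) and Lox (-0.82, adjusted p = 0.0910) were among those that no longer passed. Taken over both genotypes, Bmp1, which removes the end propeptide of fibrillar procollagen, was lower than in dorsal tissue in medial (log2 fold change -0.42, SE 0.0751, adjusted p = 0.00809 in edgeR) and in orbital tissue (log2 fold change -0.30, SE 0.0750, adjusted p = 0.0391). Adamts3 was lower (log2 fold change -1.02, SE 0.241, adjusted p = 0.0293) and P4ha2, Ogn, Omd and Fmod higher in orbital than in dorsal tissue.

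No collagen gene passed the test for genotype in any region. In edgeR 0 of 41 genes were called in orbital tissue (0.0374% of all genes were), 0 in medial tissue (2.08%), 0 in dorsal tissue (0.0214%) and 0 of 42 with the 3 regions of a row summed (0.0249% of 20083 genes). At an unadjusted p under 0.05 there were 3, 2, 4 and 4, against 13.9%, 15%, 6.78% and 9.03% of all genes. DESeq2 called 0, 1, 0 and 1 and limma-voom 0, 1, 0 and 0. The class medians of the log2 fold change, dKO minus control, were -0.25 for fibrillar, 0.08 for basement membrane and -0.37 for other genes in orbital tissue, beside -0.03 for all genes. In dorsal tissue they were 0.26, 0.46 and 0.08, beside -0.01. In medial tissue they were 0.31, 0.23 and 0.24, beside -0.00, and without medial control 1 they were -0.19, -0.16 and -0.32, so that their sign turned with that library.

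**Figure D4:**
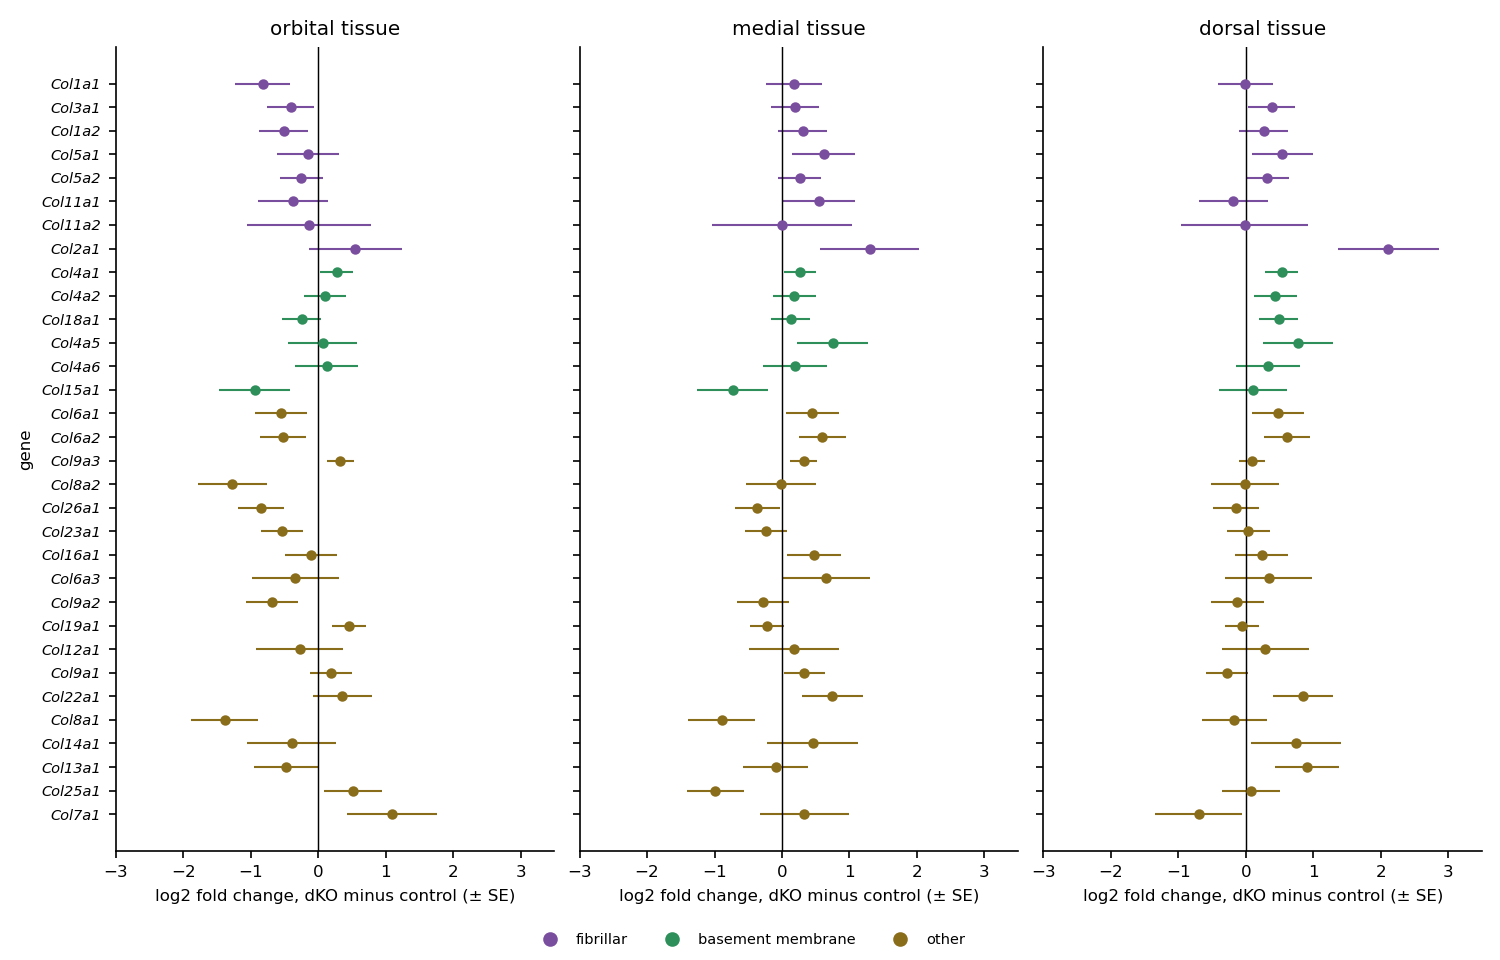
Log2 fold change, dKO minus control, of the 32 collagen genes with a mean of at least 1 CPM in orbital, medial and dorsal tissue (points, bars ± SE from edgeR), with fibrillar, basement membrane and other genes in different colours. No point passed an adjusted p of 0.05; the values of the medial panel include medial control 1.

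In orbital tissue the lowest p values on the negative side belonged to Col8a1 (log2 fold change -1.38, SE 0.497, adjusted p = 0.235), Col26a1 (log2 fold change -0.85, SE 0.337, adjusted p = 0.281) and Col8a2 (log2 fold change -1.27, SE 0.511, adjusted p = 0.283) in edgeR. In each of the 3 sets these genes had lower values in dKO than in control orbital tissue. Col1a1, Col6a1, Col9a2, Col18a1 and Col23a1 were lower in each set too, while Col7a1, Col9a1, Col9a3, Col19a1 and Col22a1 were higher in each set. The share of all genes with the same direction in all 3 sets, or without overlap of the groups, was not counted. For Col8a2 the 3 controls (58.0 to 74.0 CPM) lay above the 3 dKO libraries (17.5 to 41.2 CPM), and for Col26a1 60.2 to 113 CPM lay above 41.7 to 49.3 CPM. On the positive side Col19a1 was at 0.46 (SE 0.253, adjusted p = 0.425), Col9a3 at 0.33 (SE 0.197, adjusted p = 0.470) and Col7a1 at 1.09 (SE 0.666, adjusted p = 0.480). In the same libraries 15 of 16 meningeal and 12 of 12 microglial markers had negative values (medians -0.71 and -0.60), and none passed the test in edgeR, with 7 and 6 at an unadjusted p under 0.05. Their part in the collagen values was not tested.

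In medial tissue Col2a1, the fibrillar chain of cartilage, was at 1.30 (SE 0.730, adjusted p = 0.440), Col6a2 at 0.60 (SE 0.348, adjusted p = 0.458) and Col22a1, a collagen of tissue junctions, at 0.75 (SE 0.449, adjusted p = 0.479). On the negative side Col25a1 was at -0.99 (SE 0.427, adjusted p = 0.276), Col8a1 at -0.89 (SE 0.50, adjusted p = 0.437) and Col15a1 at -0.73 (SE 0.527, adjusted p = 0.576). The gene called by DESeq2 and limma-voom was Col4a4, of the type IV network of kidney and other specialised membranes, which is named here because its values were seen. Col4a4 averaged 0.718 CPM and was at 0.293, 0.459 and 0.248 CPM in medial controls and 2.18, 0.980 and 1.42 CPM in medial dKO, without overlap (edgeR: log2 fold change 2.09, SE 0.599, adjusted p = 0.0835). Its head-to-head neighbour Col4a3, 71 bases away, averaged 0.192 CPM. Among the processing genes, P4ha3 (log2 fold change 1.86, SE 0.307, adjusted p = 0.00665), a prolyl 4-hydroxylase subunit, Loxl1 (log2 fold change 1.51, SE 0.264, adjusted p = 0.00890), a cross-linking oxidase, and Mmp14 (log2 fold change 0.98, SE 0.191, adjusted p = 0.0176), a membrane-bound collagenase, rose in medial dKO in edgeR. They were 1 of 24 genes of modification and folding, 1 of 14 of cross-linking and 1 of 12 of degradation, beside 2.08% of all genes. All 3 stayed past the test without medial control 1, P4ha3 at 1.64 (SE 0.343, adjusted p = 0.0270), Loxl1 at 1.27 (SE 0.275, adjusted p = 0.0306) and Mmp14 at 0.74 (SE 0.173, adjusted p = 0.0410).

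Markers of several other cells moved between the same medial libraries. The 8 radial glia markers summed to 308, 447 and 469 CPM in medial controls and 953, 595 and 654 CPM in medial dKO, and all 8 had positive values, with Vim, Pax6 and Hopx past the test in edgeR, also without medial control 1. The 13 neuronal markers summed to 8626 to 10564 CPM in controls and 7340 to 8082 CPM in dKO, with the synaptic vesicle gene Syt1 lower with and without that library. Red blood cell markers summed to 804 to 1109 CPM in controls and 1492 to 3118 CPM in dKO, and 12 of 12 microglial markers had positive values (median 0.42), with no member of either list past the test in edgeR and 3 and 5 at an unadjusted p under 0.05. The cartilage and bone markers summed to 29.0, 56.5 and 86.1 CPM in controls and 89.3, 131 and 94.3 CPM in dKO, and Spp1, osteopontin, which microglia also make, rose (log2 fold change 2.05, SE 0.320, adjusted p = 0.00524), at 2.15 (adjusted p = 0.0146) without medial control 1. Over the 8 cartilage and bone markers tested without that library the median log2 fold change was -0.64, and only Spp1 was called. The rise of the sum was thus not shared by most of this list. The groups did not overlap in any of these 4 sums. They did overlap for the meningeal markers, at 416, 1125 and 2683 CPM in controls and 1527, 1563 and 1095 CPM in dKO. Endothelial markers (260 to 337 against 293 to 385 CPM) and those of pericytes and smooth muscle (137 to 217 against 190 to 273 CPM) overlapped too. Without medial control 1 the median log2 fold changes of these lists, in that order, were -0.19, 0.14 and 0.00, with none called in edgeR. The part of these cells in the values of Col2a1 and the other genes was not tested.

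In dorsal tissue Col2a1 had the lowest p. Col2a1 was at 1.10, 0.138 and 0.467 CPM in dorsal controls and 2.10, 2.81 and 2.51 CPM in dorsal dKO, and in medial tissue at 0.161, 1.84 and 1.12 CPM in controls and 4.01, 2.40 and 2.29 CPM in dKO. Neither pair of groups overlapped, whereas orbital controls (2.73, 0.811 and 2.73 CPM) and orbital dKO (5.15, 2.51 and 2.01 CPM) did. The level was low, from 0.138 to 5.15 CPM, and the share of all genes without overlap of the groups was not counted. The dorsal change was 2.11 (SE 0.751, adjusted p = 0.565), and with regions summed it was 1.09 (SE 0.287, adjusted p = 0.389) in edgeR and 1.11 (adjusted p = 0.0115) in DESeq2. In dorsal tissue the 9 cartilage and bone markers summed to 50.8, 44.9 and 74.3 CPM in controls and 71.9, 73.2 and 76.0 CPM in dKO, with 0 called in edgeR and 1 at an unadjusted p under 0.05, and their part in the Col2a1 values was not tested. Col4a1 was at 0.53 (SE 0.241, adjusted p = 0.722) in dorsal tissue and had higher values in dKO in 3 of 3 sets, and Col13a1 at 0.91 (SE 0.476, adjusted p = 0.763). In the negative direction Col7a1 was at -0.70 (SE 0.650, adjusted p = 0.913), Col9a1 at -0.28 (SE 0.306, adjusted p = 0.929) and Col26a1 at -0.14 (SE 0.335, adjusted p = 0.975). Of the 16 meningeal markers 14 and of the 17 endothelial markers 13 had positive values in dorsal dKO (medians 0.48 and 0.29), and none passed the test in edgeR, with 2 and 4 at an unadjusted p under 0.05. Their part in the collagen values was not tested.

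With regions summed, Col22a1 was at 0.65 (SE 0.232, adjusted p = 0.481) and Col4a1 at 0.39 (SE 0.173, adjusted p = 0.557). Col8a2 was at -0.63 (SE 0.247, adjusted p = 0.512), Col26a1 at -0.54 (SE 0.249, adjusted p = 0.580) and Col9a2 at -0.46 (SE 0.238, adjusted p = 0.617). The basement membrane median was 0.26, the fibrillar median 0.02 and the median of other genes -0.01, beside -0.03 for all genes. Without medial control 1 these medians were 0.17, -0.12 and -0.15, beside -0.03, so the fibrillar sign turned with that library.

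Whether the genotype difference itself differed between regions was tested as an interaction, in which no collagen gene passed in edgeR. In medial against dorsal tissue 0 of 41 had an unadjusted p under 0.05, in orbital against dorsal tissue 9 and in medial against orbital tissue 6, against 5.17%, 12.6% and 20.6% of all genes. At the adjusted threshold 0%, 0% and 1.47% of all genes were called. DESeq2 called 0, 0 and 1 collagen genes, the last being Col6a2, and limma-voom none. In the difference of medial and orbital effects 34 of 41 genes had positive values (median 0.58, beside 0.01), and without medial control 1 it was 23 of 43 (median 0.08, beside 0.02). The largest values by p among genes of at least 1 CPM were Col6a2 at 1.27 (SE 0.422, adjusted p = 0.119), Col8a2 at 1.55 (SE 0.579, adjusted p = 0.153) and Col1a1 at 1.22 (SE 0.468, adjusted p = 0.165). On the negative side stood Col25a1 at -1.44 (SE 0.546, adjusted p = 0.159), Col19a1 at -0.67 (SE 0.352, adjusted p = 0.298) and Col7a1 at -0.65 (SE 0.925, adjusted p = 0.738). Of the processing genes Sparc (log2 fold change 1.22, SE 0.221, adjusted p = 0.0278), Loxl1 (log2 fold change 1.69, SE 0.311, adjusted p = 0.0278) and Mmp14 (log2 fold change 0.99, SE 0.218, adjusted p = 0.0424) passed in this test, and without medial control 1 they were at 1.03 (adjusted p = 0.0134), 1.48 (adjusted p = 0.0159) and 0.77 (adjusted p = 0.0219).

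In orbital against dorsal tissue the difference of dKO effects was negative for 34 of 41 genes (median -0.59, beside -0.01), and 33 of 43 without medial control 1. Col8a1 was at -1.24 (SE 0.436, adjusted p = 0.280), Col13a1 at -1.37 (SE 0.488, adjusted p = 0.282) and Col6a2 at -1.16 (SE 0.416, adjusted p = 0.284), and on the positive side Col7a1 at 2.13 (SE 0.933, adjusted p = 0.371), Col19a1 at 0.53 (SE 0.349, adjusted p = 0.562) and Col9a3 at 0.22 (SE 0.193, adjusted p = 0.686). In medial against dorsal tissue Col8a1 was at -0.75, Col13a1 at -0.85, Col25a1 at -0.85, Col7a1 at 1.48, Col11a1 at 0.78 and Col9a1 at 0.64, all at an adjusted p of 0.9996. That difference was positive for 21 and negative for 20 of 41 genes (median 0.05, beside -0.00), and without medial control 1 it was negative for 36 of 43 (median -0.50, beside -0.02).

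**Figure D5:**
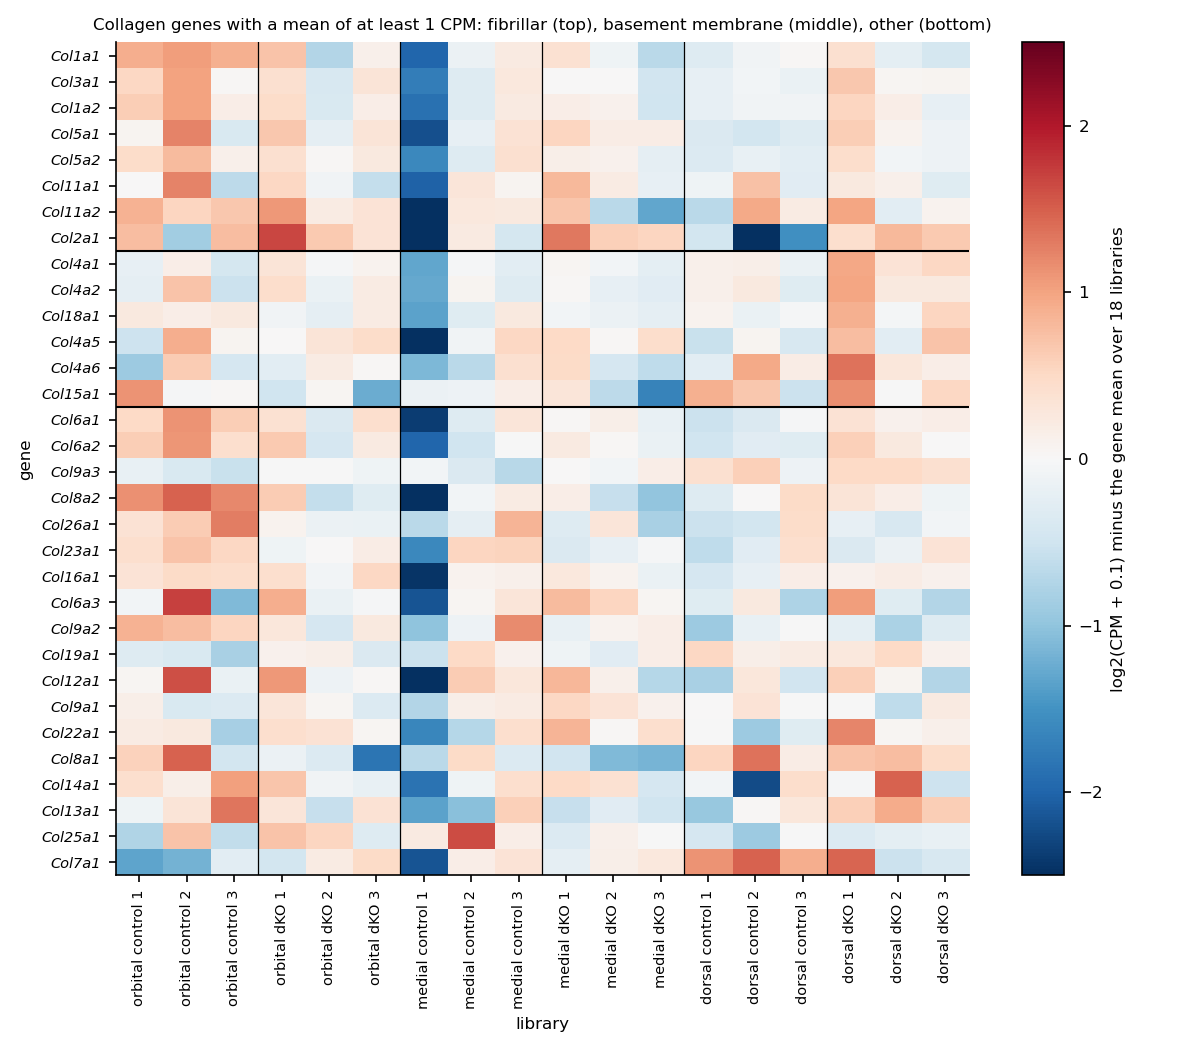
The 32 collagen genes with a mean of at least 1 CPM (rows, ordered by class and mean TPM) in the 18 libraries (columns). Colours show log2(CPM + 0.1) minus the gene's mean, red above and blue below, and stop at 2.5 on the log2 scale. Medial control 1 is blue for most genes of all 3 classes, and orbital controls are red for the leading fibrillar and type VI genes.

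Genes of low or uneven level complete the set. Col16a1, a fibril-associated collagen, averaged 18.6 CPM, Col12a1 22.3 CPM, Col23a1, a transmembrane collagen, 32.6 CPM and Col5a2, the partner of Col5a1, 44.7 CPM, and medial control 1 was the lowest library for each of them. Col11a1 averaged 11.9, Col22a1 6.0, Col25a1 4.82, Col9a1 4.28, Col14a1 3.28, Col11a2 2.22, Col13a1 1.79 and Col15a1 1.09 CPM. Col25a1 was highest in medial control 2, at 13.8 CPM, against at most 7.26 CPM elsewhere. Below 1 CPM on average were Col4a3, Col4a4, Col5a3, Col6a4, Col6a5, Col6a6, Col17a1, Col20a1 and Col28a1, and none of these 9 was called in edgeR in a comparison of all libraries. The 3 genes that did not pass the filter were not tested there. Exons of 13 collagen genes share bases with another gene, none over more than 10% of its exonic length.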

How the data were processed

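The authors deposited raw counts of fragments per gene, which per the file headers were made with featureCounts 1.6.2 on read pairs, ignoring strand, with the Ensembl 94 models of GRCm38. STAR 2.6 is named in the submitters' processing notes. The table has 6 further columns of per-sample values, not used here. Exonic length, also per the file headers, scaled counts to TPM. The members, gene lists and tests were chosen with earlier results of these data known.

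Tests used edgeR 4.0.16 under R 4.3.3, with TMM scaling, genes kept by filterByExpr (minimum count 10, minimum total 15) and quasi-likelihood F tests (Benjamini-Hochberg adjustment over all genes tested, threshold 0.05). Genotype was tested in each region with 6 group means and the title prefix, and on counts summed per row; regions and interactions were tested with the row (prefix and index) as a block. Within rows, deviations from group means correlated in 18 of 18 pairs of regions (r from 0.204 to 0.650); between genotypes of a set they exceeded 0.1 in 5 of 9 (r from -0.07 to 0.32). The labels do not say how many pups a row holds, so each p-value reflects spread among libraries alone, which may be technical. Level sets the precision of counts, and genes of a few fragments are the least certain.

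Given with all values were genes past a threshold and the 4 of highest TPM per class; by fold change, the 3 of lowest p per direction and comparison with at least 1 CPM. Pathway lists gave at most 4 genes. 1 list of marker genes is not reported here. Alternatives used DESeq2 1.42.0 and limma 3.58.1; leaving out medial control 1 alone was added after the data were seen. Fits were tested on simulated data. Figures used matplotlib 3.10.9.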

Additional observations from a re-analysis of the deposited data

How the results depend on the processing

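Of 176 recomputed counts of called collagen genes, 134 stayed within 1.5 times the main value and 42 moved. Most of the 134 were counts that were 0 in the main fit and 0 again. The share of all genes called under each setting is not given beside the counts below, which show only how calls moved. Where the main fit called genes, counts ran from 1 to 6 for medial minus dorsal (main 4) and 1 to 6 for orbital minus dorsal (main 1). In controls they ran from 0 to 3 for medial minus dorsal (main 1), 0 to 16 for orbital minus dorsal (main 6) and 0 to 13 for medial minus orbital (main 4). With DESeq2 the count was 1 in medial dKO, 1 with regions summed, 6 for orbital minus dorsal, 10 for medial minus orbital controls and 1 for the medial minus orbital dKO effect; with limma-voom it was 1 in medial dKO and 8 for medial minus orbital controls. At an adjusted p under 0.01 it was 1 for medial minus dorsal and, in controls, 0 for medial minus dorsal, 1 for orbital minus dorsal and 0 for medial minus orbital. Without the filter on low counts (44 collagen genes of 34890) it was 3 for orbital minus dorsal, 1 for medial minus orbital, 3, 16 and 13 for the control comparisons in the order above, and 4 and 6 for the orbital minus dorsal and medial minus orbital dKO effects. Without the row block it was 1 for medial minus dorsal and 0 in the 3 control comparisons; the paired block by set changed no count of dKO calls by over 1.5 times. Without medial control 1 alone it was 2 for orbital minus dorsal, and in controls 0 for medial minus dorsal and 14 for orbital minus dorsal, and 1 for the medial minus orbital dKO effect. Leaving out a row gave 1 to 5 for medial minus dorsal, 0 to 0 for medial minus dorsal controls, 1 to 7 for orbital minus dorsal controls and 1 to 11 for medial minus orbital controls. Values turned sign for Col26a1 in dorsal dKO (0.16 without dorsal control replicate 3), for Col2a1 in medial minus dorsal (-0.12 to 0.75 with a row out; in controls -0.75 to 2.44, and -0.33 with limma-voom) and for Col9a2 in medial minus dorsal controls (-0.043 to 0.66 with a row out). The cause of these shifts was not tested.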
